A study of Mus musculus with 19 samples.

Results

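The genes described here encode the protein subunits of the cytosolic ribosome. They were taken by symbol: protein-coding genes named Rpl or Rps followed by a number, with the letter suffixes used for variants and paralogues, together with Rpsa, Rplp0, Rplp1 and Rplp2. Of 97 symbols of that form, 7 ribosomal protein S6 kinases and 6 pseudogenes were left out. The remaining 84 genes, among 55487 in the deposited tables, comprise 32 of the small (40S) and 52 of the large (60S) subunit. They lie on 19 chromosomes.

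RNA from the cerebral cortex of male P301S/E4 mice was sequenced in 19 libraries. Both groups carry the same genotype, a tauopathy model whose name combines a disease-causing mutation of the microtubule protein tau (P301S) with human apolipoprotein E4. The promoter of the transgene is not given in the sources used here. The 10 lemborexant libraries came from mice gavaged each day with 30 mg/kg of this dual orexin receptor antagonist at zeitgeber time 13, from 7.5 to 9.5 months of age, and the 9 vehicle libraries from mice gavaged with 0.5% methylcellulose. The recorded age was 41 weeks for every mouse. The series text speaks of triplicates, whereas the labels list 10 and 9 libraries, and nothing states that the libraries derive from different mice, so the p-values below measure the spread between libraries, which may be partly technical. The question was which transcripts of the cortex change when the receptors of orexin, a wake-promoting peptide, are blocked for a long time.

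A ribosome holds 1 copy of nearly every ribosomal protein, so cells need these proteins in closely matched amounts. Their mRNAs are short, abundant and stable, and most begin with a C followed by a run of pyrimidines, the 5′ terminal oligopyrimidine (TOP) motif, through which the mTOR kinase and the RNA-binding protein LARP1 set their translation. In neurons they are also found in dendrites and axons. TOP control acts mainly on translation, which was not measured here: the libraries report mRNA level.

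The start of the transcript is shown for 8 members chosen to hold a long, a short or no pyrimidine run, as 40 bases before and 30 bases from the start annotated by RefSeq (GRCm38.p6), on the strand of the gene. The longest run of at least 8 pyrimidines that begins with a C within 30 bases of the start is in capitals.
Rpl27a, chr7:109519155-109519224, plus strand: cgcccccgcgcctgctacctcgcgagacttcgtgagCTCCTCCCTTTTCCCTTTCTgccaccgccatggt
Rpl7a, chr2:26910767-26910836, plus strand: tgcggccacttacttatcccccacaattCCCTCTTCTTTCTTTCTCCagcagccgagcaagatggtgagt
Rpl15, chr14:18270957-18271026, minus strand: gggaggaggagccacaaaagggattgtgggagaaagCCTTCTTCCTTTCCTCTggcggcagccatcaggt
Rpl38, chr11:114668540-114668609, plus strand: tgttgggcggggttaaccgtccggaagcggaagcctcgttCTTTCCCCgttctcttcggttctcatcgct
Rps27, chr3:90213619-90213688, minus strand: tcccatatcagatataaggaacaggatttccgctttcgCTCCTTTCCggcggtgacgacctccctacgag
Rpl5, chr5:107900488-107900557, plus strand: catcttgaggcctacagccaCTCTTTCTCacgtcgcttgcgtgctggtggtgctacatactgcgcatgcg
Rps2, chr17:24720023-24720092, plus strand: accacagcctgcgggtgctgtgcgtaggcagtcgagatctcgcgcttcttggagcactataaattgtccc
Rpl7l1, chr17:46782627-46782696, minus strand: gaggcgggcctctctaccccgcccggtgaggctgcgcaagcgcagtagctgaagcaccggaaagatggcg
The run is 20 bases long in Rpl27a, 19 in Rpl7a, 17 in Rpl15, 9 in Rps27 and Rpl5 and 8 in Rpl38. The windows of Rps2 and Rpl7l1 hold none.

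Of the 81 members tested, 61 had a start in the RefSeq table. Such a pyrimidine run was found in 33 of these 61 (54.1%) and in 20.5% of 26961 other genes. Other motifs were searched over 250 bases before to 50 bases from the start, on both strands. CCGGAAG, the core bound by Ets-family factors such as GABP, occurred in 25 of 61 members (41.0%) and 9.85% of other genes, and the Rpl38 window above holds it. AAGATGG, a YY1 core, occurred in 10 members (16.4%) and 7.26% of other genes, and CTCTTT, a stretch that can lie inside a pyrimidine run, in 45.9% and 25.6%. TATAAA occurred in 11.5% and 15.7%. Annotated starts can lie away from the start used in cortex, so a match or its absence describes only the letters of the window.

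The 81 members tested were high in every library. Mean TPM, a level per transcript length, ran from 55.7 for Rpl7l1 to 2585 for Rpl41, with a median of 525, and 33 of the 200 genes with the highest mean TPM were members. After Rpl41, which encodes a very small 60S peptide, came Rps14, a 40S protein, at 2436 TPM and Rps29 at 2177 TPM. The lowest after Rpl7l1 were Rpl12, at the base of the stalk, at 72.5 TPM, and Rpl5, a carrier of 5S rRNA, at 80.5 TPM. The order of the members by TPM was nearly the same in every library. Over the 171 pairs of libraries, Spearman's rho across the 81 members had a median of 0.991 and a lowest value of 0.968 (a description across genes). The median TPM was 528 for the 40S members and 489 for the 60S members.

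Ribosomal protein genes have many processed pseudogenes, and where reads were assigned to these in number, the level of the gene is uncertain. Of the 84 members, 60 had at least 1 pseudogene named for them. Reads assigned to these pseudogenes came, at the median library, to 123% of the reads of Rpl10, 107% of Rps23, 99.7% of Rpl28, 94.3% of Rps6 and 89.4% of Rpl17. The share was over 25% for 14 members. It was 3.83% for Rps2, 9.05% for Rpl38 and 0.701% for Rpl5. Over the 300 pseudogenes with an Rpl or Rps symbol ending in -ps, the reads equalled 9.12 to 10.5% of the member reads in the 19 libraries. Pseudogenes under other symbols are not in these shares.

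Libraries that stood apart are given before the comparisons. In 3 pairs of lemborexant libraries (1 and 10, 3 and 8, 4 and 9) the counts were nearly alike, and chi-square divided by its degrees of freedom was 3.08 to 3.66, whereas the remaining 168 pairs gave 12.2 to 274. Whether each such pair came from 1 mouse or 1 RNA cannot be told from the labels, so results are also given with each pair summed, as 16 units (7 lemborexant, 9 vehicle). In 4 libraries, lemborexant 6 and vehicle 3, 4 and 5, reads on nuclear ribosomal RNA made up 3.23 to 3.83% of reads, against 1.34 to 2.80% in the other 15. Of these rRNA reads, 99.9976% lay on the largest rRNA gene model, so the rRNA share used below is in effect the level of that gene model. Lemborexant 7 stood apart in thalamic and hypothalamic markers, and vehicle 7 had the highest summed blood markers. Without both, the treatment comparison below had a median log2 change of -0.43 in place of -0.40, with 0 members called. Estimated reads on genes numbered 20185100 to 31795600 per library (to the nearest 100). Neuron markers (12 of 12 tested) summed to 3792 to 10253 CPM, reads per 1000000 reads on genes, so that the neurons expected of cortex were detected in every library. Cst7, a microglial activation gene, was at most 0.259 CPM in lemborexant 1 and 10 and vehicle 1 and 4, and ran from 17.0 to 123 CPM elsewhere. Gfap, an astrocyte marker, was 421 to 587 CPM in those libraries and 3341 to 8159 CPM in the rest. Library numbers over 1000 ran from 1064 to 1525 in the lemborexant group and from 1574 to 1602 in the vehicle group, so any effect of that numbering and the treatment cannot be told apart within them.

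Those 4 libraries carried the highest ribosomal protein levels. The 84 members together took 2.98 to 3.898% of reads in them and 1.68 to 2.41% in the other 15. For 75 of the 81 members tested, each of the 4 libraries was above each of the other 15. The share of all genes that did so was not counted, and other gene lists also separated these libraries. Summed respiratory chain subunits with short nuclear mRNAs had 14326 to 19962 CPM in the 4 and 9776 to 12454 CPM in the others. Mitochondrial ribosomal proteins had 4946 to 6189 against 3945 to 4449 CPM. Genes of the TOR, S6 kinase and LARP1 axis were lower, at 833 to 882 against 934 to 1075 CPM. Vehicle 5 was the highest library for 68 members and lemborexant 6 for 12, and Rpl7l1 was highest in lemborexant 5. Reads on mitochondrially encoded (mt-) genes ranged from 7.19 to 9.002% in the 4 libraries and from 4.32 to 6.19% in the others.

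**Figure D1:**
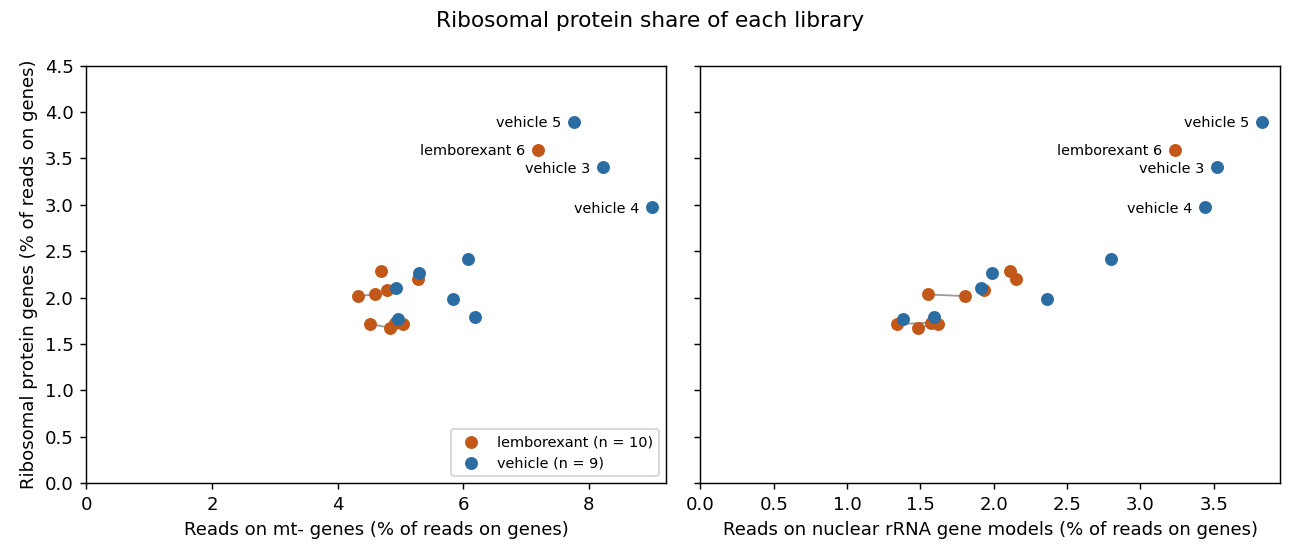
Share of reads on the 84 ribosomal protein genes (y axis, % of reads on genes) in each library against the share on mt- genes (left) and on nuclear rRNA gene models (right), with grey lines joining nearly alike lemborexant libraries. The 4 named libraries lie at 2.98 to 3.898% of reads, above the other 15 at 1.68 to 2.41%.

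The ratio of 40S to 60S mRNA reads, which does not measure the subunits themselves, was also higher in these 4 libraries. The part of mRNA length in this ratio was not tested. Summed 40S reads were 0.667 to 0.693 of summed 60S reads in the 4 libraries and 0.616 to 0.662 in the other 15. By group the ratio was 0.639 ± 0.022 (SD, n = 10) for lemborexant and 0.656 ± 0.021 (SD, n = 9) for vehicle, and the groups overlapped. Beside this, the summed markers of oligodendrocyte precursors (4 genes) were 55.8 to 80.2 CPM in the 4 libraries and 86.9 to 113 in the others. Neuron markers were 3792 to 8057 CPM in the 4 and 5626 to 10253 CPM in the others, microglial and gliosis markers (12 genes) 500.1 to 3956 and 365 to 2678 CPM, and choroid plexus markers (9 genes) 161 to 2179 and 299.6 to 15050.2 CPM. Cst7, a microglial activation gene, was under 1 CPM in vehicle 4, one of the 4 libraries. Their part in the ribosomal protein levels was not tested.

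**Figure D2:**
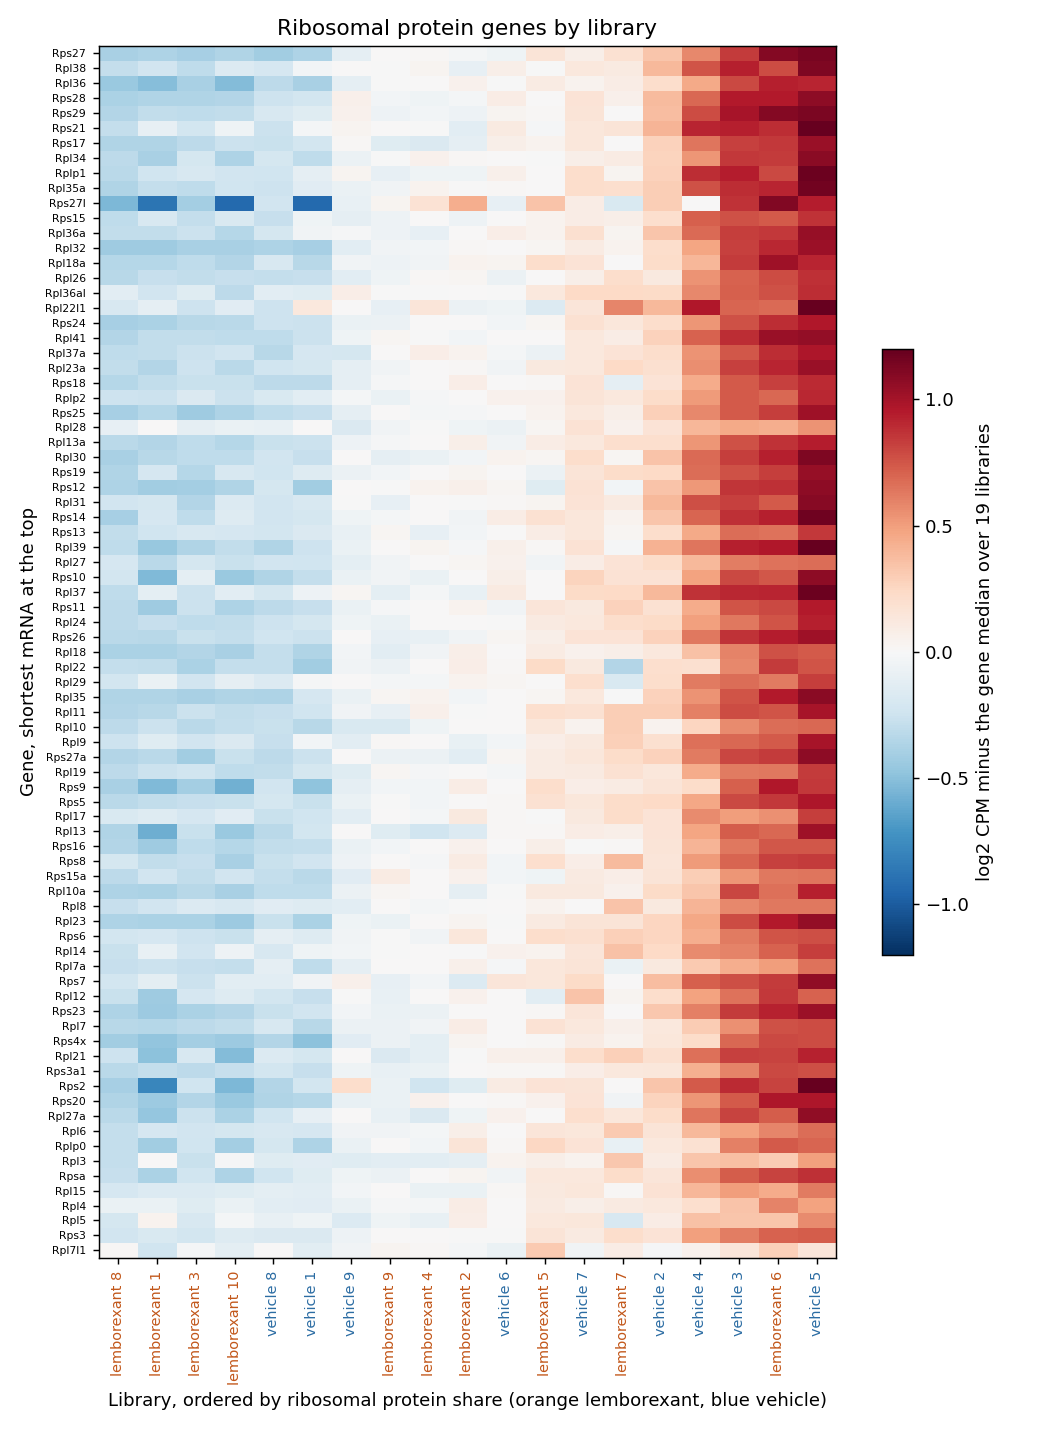
log2 CPM of each of the 81 members tested minus its median over the 19 libraries (colour), with genes ordered by mRNA length from the shortest at the top and libraries ordered by ribosomal protein share. The 4 columns at the right are vehicle 4, vehicle 3, lemborexant 6 and vehicle 5. Of the 81 rows, 75 are higher in each of them than in any other library, a count not made over all genes. The bottom row, Rpl7l1, spans 1.47 times from its lowest to its highest library.

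Ribosomal protein mRNA did not differ between lemborexant and vehicle past the threshold for any member. With edgeR's quasi-likelihood test and Benjamini-Hochberg adjustment over 19105 genes, 0 of 81 members were called at an adjusted p under 0.05, where 2.61% of all genes were (1.65% lower, 0.953% higher). The lowest adjusted p of a member was 0.103. DESeq2 also called 0 members, with a lowest adjusted p of 0.0633. All 81 estimates were below 0, from -0.67 for Rps2 to -0.10 for Rpl7l1, with a median of -0.40, while 46.4% of all genes were below 0 and their median was 0.03. An unadjusted p under 0.05 was reached by 38 of 81 members and by 25.7% of all genes. With TMM factors left out, 80 of 81 members were below 0, with a median of -0.25 against 0.15 for all genes, and on log2(TPM + 1) 78 were, with a median of -0.16 against 0.18.

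The levels overlapped between the groups. Summed member reads were 16774, 20254 and 35903 CPM (lowest, median, highest) in the 10 lemborexant libraries, with a mean of 21047 ± 5667 (SD), and 17673, 22683 and 38978 CPM in the 9 vehicle libraries, with a mean of 25114 ± 7525 (SD). The lemborexant mean was 0.838 of the vehicle mean. The ranges overlapped for all 81 members, where 0.162% of all genes had ranges that did not overlap. Lemborexant 6 stood above the other 9 lemborexant libraries, whose highest value was 22880 CPM.

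Several choices of libraries moved these values. With the nearly alike pairs summed, 0 members were called (0 of 19226 genes were), none had an unadjusted p under 0.05 (21.3% of all genes did), and the median change was -0.31. Without lemborexant 6, 22 members were called lower (3.7% of all genes were called lower), with a median of -0.57; these included Rps2, Rpl27a, Rplp1, Rpl38 and Rpl29. limma's voom called 1 member lower, Rps7 (5.77% of all genes were called lower). Without vehicle 5 the median was -0.27 with 0 called. Without the libraries under 1 CPM of Cst7 the median was -0.36 with 0 members called (203 of 19230 genes were called higher and 319 lower). In that fit 6 members had an unadjusted p under 0.05 (4535 of all genes did). Without the 4 libraries high in rRNA, 0 members and 0 of 19632 genes were called, 19 members had an unadjusted p under 0.05 (13.2% of all genes did), and the median was -0.15. With the pairs also summed, 5 members had an unadjusted p under 0.05 (11.8% of all genes did), and the median was -0.12. With the mt- read share as a covariate the median was 0.09 (0.02 for all genes) and 77 members were above 0, with 0 members and 0 of 19105 genes called. With the pairs summed and the rRNA share as a covariate it was 0.00268. In the libraries numbered under 1000 (3 lemborexant, 2 vehicle) the median was -0.08.

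**Figure D3:**
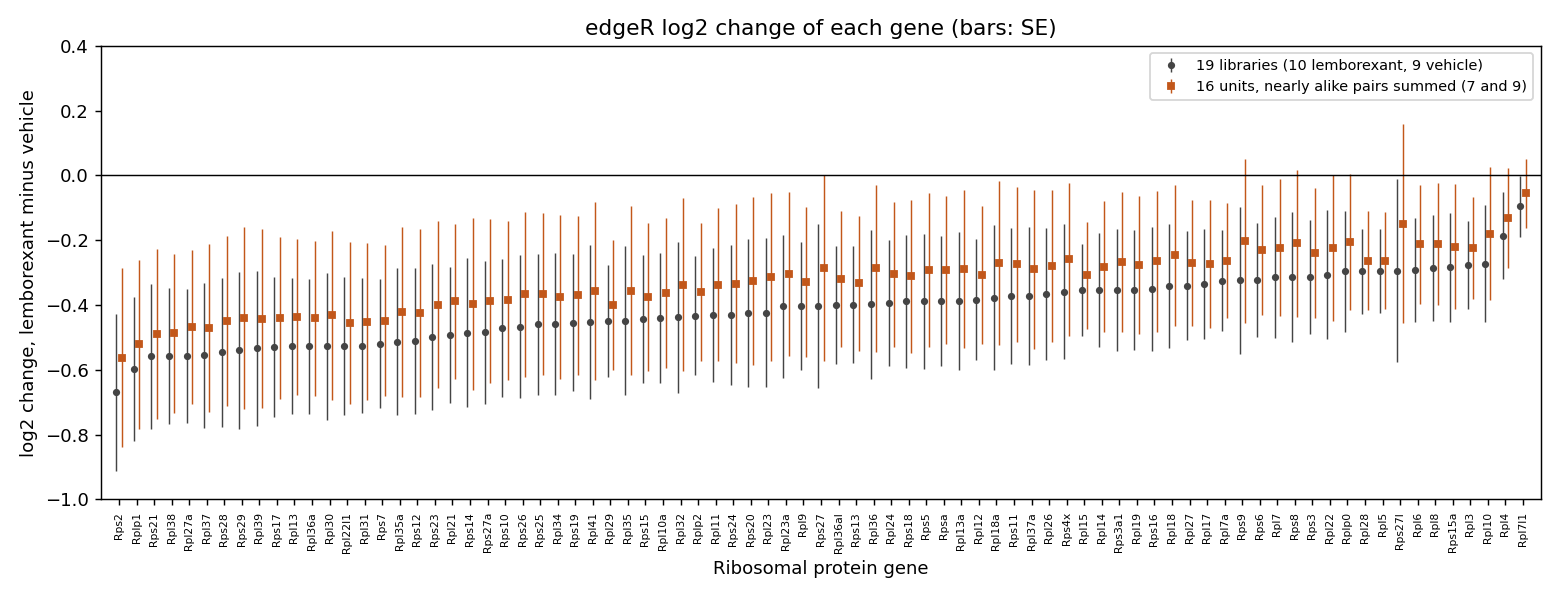
edgeR log2 change (lemborexant minus vehicle) of each of the 81 members, with its SE, ordered by the change in 19 libraries; black circles are the 19 libraries and orange squares the 16 units with nearly alike pairs summed. The estimates run from -0.67 to -0.10 in the 19 libraries, and the squares lie nearer to 0, with a median of -0.31.

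Marker levels also differed between the groups in this comparison. Of the hippocampal markers 2 of 10 were called lower, of the thalamic and hypothalamic markers 6 of 9 tested higher, of the striatal markers 1 of 8 higher and of the liver markers 5 of 6 tested lower, with 0 called by edgeR in the neuron, astrocyte, microglial, oligodendrocyte, endothelial, choroid plexus, meningeal and blood lists. With the nearly alike pairs summed, 0 genes of any marker list were called. Summed thalamic and hypothalamic markers reached 3252 CPM in lemborexant 7. The remaining 9 libraries of that group had 127 to 468 CPM and the vehicle libraries 70.6 to 168 CPM. Summed hippocampal markers were 189 to 933 CPM in lemborexant and 584 to 1034 CPM in vehicle libraries. Summed liver markers overlapped, at 76.7 to 10926 CPM in lemborexant and 27.2 to 8352 CPM in vehicle libraries, and that list shares Ttr with the choroid plexus list. In vehicle 7 the liver sum was 6793 CPM beside a choroid plexus sum of 6823 CPM. Blood markers were also highest there, at 272 CPM against 6.94 to 182 CPM in the other libraries. The part of tissue composition in the ribosomal protein values was not tested, and in bulk tissue fewer cells of a type and less RNA per cell cannot be told apart.

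The 5 members with the smallest p for treatment were Rps2, Rpl27a, Rplp1, Rpl38 and Rpl29. Rps2, a 40S protein at the mRNA channel, had 119, 180 and 358 CPM (lowest, median, highest) in lemborexant and 160, 236 and 496 CPM in vehicle libraries. Apart from lemborexant 6, no lemborexant library was above 229 CPM, which is under the vehicle median, and the ranges overlapped. Its log2 change was -0.67 (SE 0.24, adjusted p = 0.103, edgeR) and -0.56 (adjusted p = 0.247) with pairs summed. Rpl27a, a 60S protein, had 68.0, 85.6 and 155 CPM in lemborexant and 79.5, 108 and 196 CPM in vehicle libraries, with a change of -0.56 (SE 0.21, adjusted p = 0.106). Rpl38, a 60S protein known for its role in the translation of Hox mRNAs, had 133, 159 and 283 CPM against 143, 180 and 357 CPM, with a change of -0.56 (SE 0.21, adjusted p = 0.113). For both genes the highest lemborexant library was lemborexant 6. Rpl29 had 146, 165 and 263 CPM against 153, 196 and 304 CPM and a change of -0.45 (SE 0.17, adjusted p = 0.117).

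The stalk proteins, which recruit elongation factors to the 60S subunit, spanned much of the range. Rplp1 had 304, 361 and 661 CPM in lemborexant and 322, 441 and 861 CPM in vehicle libraries, with a change of -0.60 (SE 0.22, adjusted p = 0.109). Its partner Rplp2 had 244, 283 and 469 CPM against 257, 325 and 547 CPM, with a change of -0.43 (SE 0.18, adjusted p = 0.150). Rplp0, which anchors both to the ribosome, had 334, 429 and 748 CPM against 346, 490.0 and 725 CPM, with a change of -0.30 (SE 0.19, adjusted p = 0.317). Vehicle 5 was highest for Rplp1 and Rplp2 and lemborexant 6 for Rplp0.

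Rps6 and members known also for roles outside the ribosome were likewise not called. Rps6, the substrate of S6 kinase, had 223, 265 and 451 CPM in lemborexant and 240, 307 and 459 CPM in vehicle libraries, with a change of -0.32 (SE 0.18, adjusted p = 0.250). Rpl5 and Rpl11 bind 5S rRNA and can stabilise p53 by binding Mdm2. Rpl5 had 68.8, 77.8 and 100 CPM against 71.0, 84.9 and 118 CPM (log2 change -0.30, SE 0.13, adjusted p = 0.163), and Rpl11 119, 147 and 257 CPM against 125, 173 and 301 CPM (log2 change -0.43, SE 0.21, adjusted p = 0.194). Rpsa, also known as a laminin receptor, had 345, 439 and 787 CPM against 382, 490 and 824 CPM (log2 change -0.39, SE 0.20, adjusted p = 0.227). By subunit, the median change was -0.43 for the 32 genes of the 40S and -0.40 for the 49 tested genes of the 60S.

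**Figure D4:**
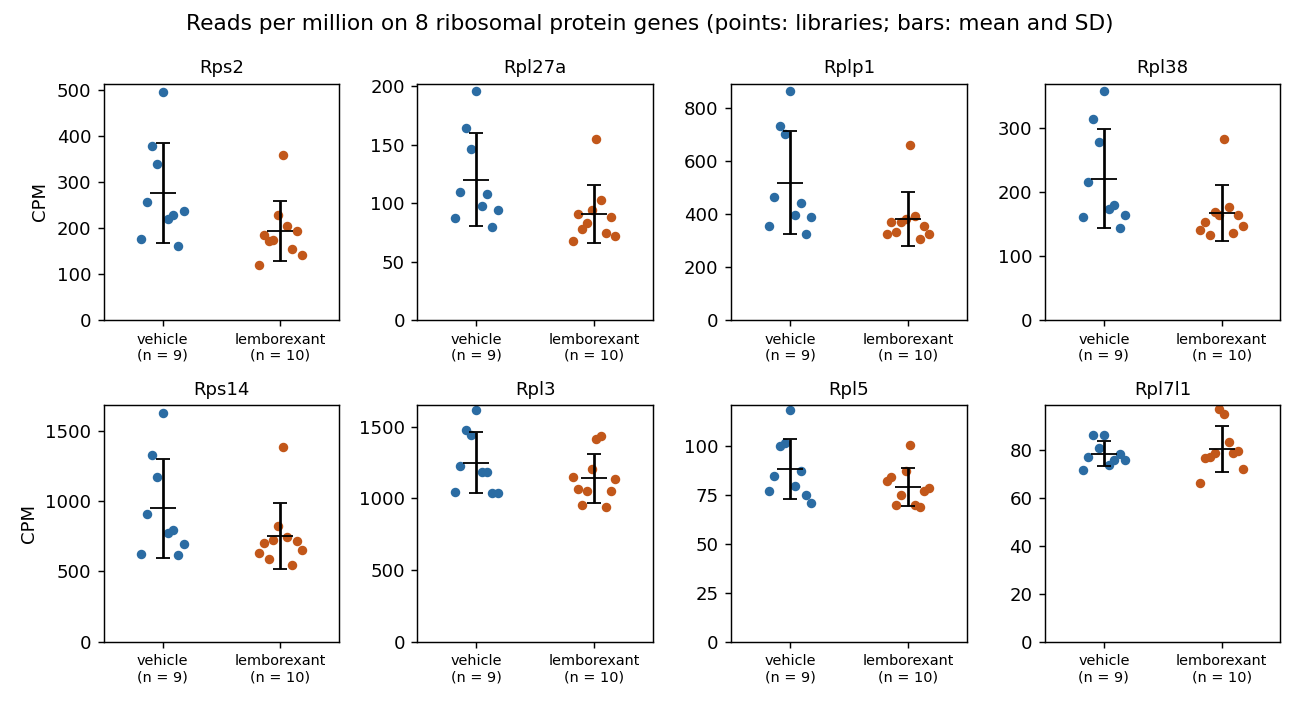
CPM of 8 members in each vehicle (blue, n = 9) and lemborexant (orange, n = 10) library, with the mean and SD. The groups overlap in every panel, and the single high lemborexant point of Rps2, Rpl27a, Rplp1, Rpl38 and Rps14 is lemborexant 6.

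The members were next compared with the mt- read share, which itself differed between the groups. It was 5.02 ± 0.81% (SD, n = 10) in lemborexant and 6.48 ± 1.49% (SD, n = 9) in vehicle libraries, a difference of -1.46 percentage points (exact two-sided permutation test, p = 0.0147, 92378 splits). With the values of the nearly alike pairs averaged, the difference was -1.33 points (exact permutation test, p = 0.0608). The rRNA share differed by -0.657 points (exact permutation test, p = 0.0681, or 0.205 with pairs averaged).

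Every member tested rose with the mt- read share over the 16 units. The slope was fitted with edgeR per SD of that share (1.41 percentage points, over a range of 4.45 to 9.002%), with the mt- genes left out of library totals and factors, and adjusted over 16268 nuclear genes. All 81 members were called with a positive slope, where 17.8% of all genes were called positive and 34.8% in either direction. Of other protein-coding genes of 500 to 750 bases and at least 10 CPM, 83.2% were called positive. The slopes ran from 0.14 for Rpl7l1 to 0.54 for Rps29, with a median of 0.42 against -0.01 for all genes, and adjusted p-values from 1.43e-05 to 0.0162. The relation rested on the 4 libraries high in both mt- and rRNA reads. Without them, 0 of 81 members and 0 of 16633 genes were called, and 6 members had an unadjusted p under 0.05 (1334 of all genes did). The median slope in that fit was 0.06 (-0.009 for all genes), with all 81 slopes above 0. It is given per SD of the share over the remaining 12 units, a smaller SD, so it is not on the scale of the 0.42.

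The 4 members with the smallest p for this slope were Rps21, Rplp1, Rps15 and Rpl38. Rps21, a 40S protein, had a slope of 0.52 (SE 0.06, adjusted p = 1.43e-05, edgeR) and 121, 144 and 274 CPM in lemborexant against 124, 162 and 342 CPM in vehicle libraries. Rplp1 had a slope of 0.52 (SE 0.06) and Rpl38 of 0.49 (SE 0.06). Rps15, a 40S protein at the subunit's head, had a slope of 0.44 (SE 0.05) and 150, 177 and 307 CPM against 153, 196 and 338 CPM. At the other end, Rpl7l1 had 66.1, 78.9 and 97.0 CPM against 71.7, 77.2 and 86.4 CPM, so that its CPM mean was higher in lemborexant (80.4 against 78.4) while its TMM-scaled change was -0.10 (adjusted p = 0.537). The highest and lowest library for it were both lemborexant libraries.

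The 4 libraries lay above the rest in member and mt- read shares, while in rRNA share they followed closely on the others (3.23% after 2.80%). The member share was therefore correlated with the mt- read share only within the other units. Within the 12 units at or under 3% rRNA, the member share of non-mt- reads had Pearson's r of 0.21 and Spearman's rho of 0.18 with the mt- read share (r = 0.18 without the 2 units farthest from the median mt- share). This value was not stable: r was -0.03 (rho 0.0) with the share taken from the mt- protein-coding genes only and 0.48 (rho 0.39, 10 units) without the libraries under 1 CPM of Cst7. Within the same 12 units it had r of 0.85 and rho of 0.80 with the rRNA share (r = 0.76 without the 2 farthest). These are descriptions of shares of the same libraries. The members also varied together: r of a member's log2 CPM with the sum of the others had a median of 0.983 over 16 units and 0.934 over the 12, with lowest values of 0.655 and 0.436, and the values over 16 units include the spread between the 4 libraries and the rest.

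Slope followed mRNA length among members as among other genes. Spearman's rho of length with slope was -0.58 across the 81 members, whose lengths ran from 350 to 1989 bases with a median of 684, and -0.63 across 9870 other protein-coding genes of at least 10 CPM (descriptions across genes, which are not independent). In the members the median slope was 0.49 up to 500 bases (10 genes), 0.43 from 500 to 750 (39 genes), 0.38 from 750 to 1000 (21 genes), 0.33 from 1000 to 1500 (7 genes) and 0.26 from 1500 to 2000 (4 genes). In other genes it was 0.43, 0.34, 0.25, 0.17 and 0.08 in the same ranges and -0.14 above 5000 bases. Of the 34 other genes up to 500 bases, 76.5% were called positive. The share was 83.2% from 500 to 750 bases, 74.0% from 750 to 1000, 60.3% from 1000 to 1500 and 29.1% from 1500 to 2000. Length and the treatment change were related with rho of 0.47 in the members and 0.44 in the other genes. The part of length in the member values was not tested.

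**Figure D5:**
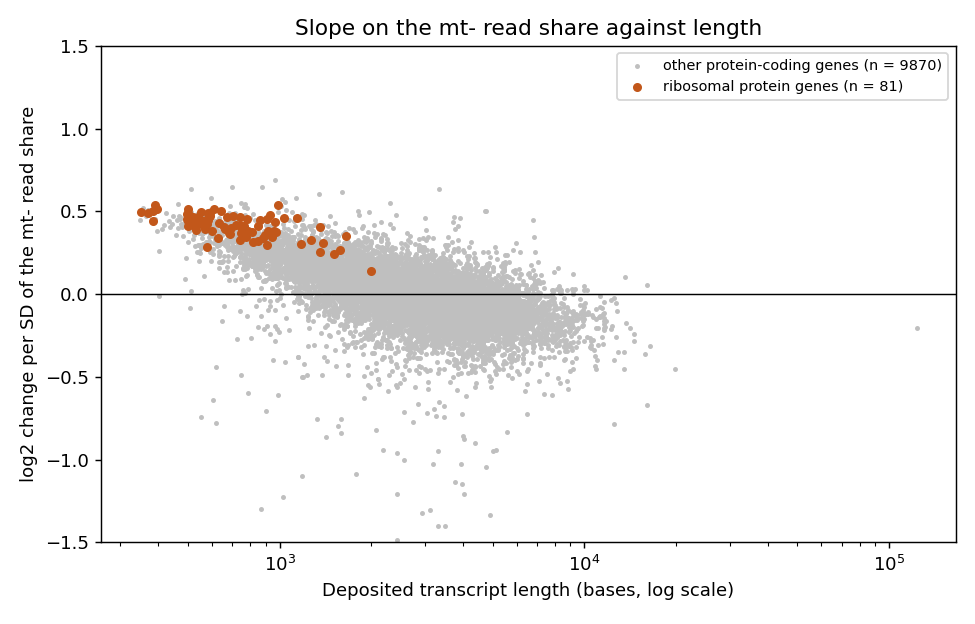
Slope of each gene on the mt- read share (y axis, log2 change per SD of the share) against deposited transcript length (x axis, log scale), for 81 members and 9870 other protein-coding genes, with 4 genes beyond the y axis. The members lie at 0.14 to 0.54 among the short genes, and slopes fall with length in both sets (rho -0.58 and -0.63).

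Members with and without the sequence features shown above had close median slopes. The median slope was 0.42 for the 33 members with a pyrimidine run and 0.40 for the 28 without, with median lengths of 670 and 715 bases. It was 0.45 for the 25 members with CCGGAAG and 0.39 for the 36 without, at 645 and 715 bases. Among the genes printed, those without a run had the slopes 0.54 (Rps2) and 0.14 (Rpl7l1). Those with a run of 17 to 20 bases had 0.46 (Rpl27a), 0.30 (Rpl7a) and 0.31 (Rpl15), and those with 8 or 9 had 0.49 (Rpl38), 0.50 (Rps27) and 0.27 (Rpl5), so the 3 sets overlapped.

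The spread of single members over the units differed. The 3 with the largest SD of log2 CPM were Rps27l, Rps27 and Rps2, and the 3 with the smallest Rpl7l1, Rpl5 and Rpl4. Rps27, a zinc-finger protein of the 40S, had 137, 178 and 385 CPM in lemborexant and 134, 189 and 395 CPM in vehicle libraries. Rpl4, a protein that reaches into the peptide exit tunnel, had 534, 584 and 890.2 CPM against 539, 619 and 828 CPM, with a change of -0.19 (SE 0.13, adjusted p = 0.387). Over the 19 libraries the highest CPM of a member was 1.47 to 4.17 times its lowest, with a median of 2.50.

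Of 4 expressed paralogues, Rps27l and Rpl7l1 were far below their parent genes in level per length, and Rpl22l1 and Rpl36al were near theirs. Rpl22l1, an RNA-binding paralogue of Rpl22, had a median TPM of 236 (201 to 432) against 204 (138 to 364) for Rpl22, a ratio of 123% at the median library and of 82.9 to 225% over the 19. Rpl36al had 276 TPM against 259 for Rpl36a, or 110% (93.5 to 125%). Rps27l, a p53 target, had 120 TPM against 1248 for Rps27, or 10.2%, and Rpl7l1 55.4 against 737 for Rpl7, or 8.12%. The parents' levels include any reads shared with these copies.

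The treatment values of these 4 paralogues did not pass the test. Rpl22l1 had 50.4, 55.7 and 95.9 CPM in lemborexant and 50.5, 66.1 and 139 CPM in vehicle libraries (log2 change -0.53, SE 0.21, adjusted p = 0.132), and Rpl22 63.2, 72.8 and 147 CPM against 61.5, 89.3 and 139 CPM (log2 change -0.31, SE 0.20, adjusted p = 0.331). Rps27l had a change of -0.29 (SE 0.28) and Rpl36al of -0.40 (SE 0.18). The remaining 3 paralogues, Rpl3l of striated muscle and the testis-enriched Rpl10l and Rpl39l, were not tested because their reads were near 0. Over the 19 libraries Rpl3l had 110 reads in all, Rpl10l had 2, with 17 libraries at 0, and Rpl39l had 56, with 5 libraries at 0. Their parents Rpl3, at the peptidyl transferase centre, Rpl10 and Rpl39 had median TPM of 1277, 353 and 226. Rps4l, annotated as a transcribed pseudogene and so no member, had a mean TPM of 102 and a change of -0.04 (adjusted p = 0.877), beside Rps4x with 175, 227 and 419 CPM against 172, 260 and 416 CPM and -0.36 (adjusted p = 0.275).

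Ribosomal proteins outside the symbol rule were also examined. Fau encodes Rps30 fused to a ubiquitin-like protein, and Rack1 is a scaffold on the 40S head. Neither was called for treatment, with log2 changes of -0.42 for Fau (adjusted p = 0.189, edgeR) and -0.28 for Rack1 (adjusted p = 0.269), and both were called for the slope, at 0.40 and 0.30. Fau had 137, 174 and 297 CPM in lemborexant and 144, 199 and 337 CPM in vehicle libraries. Among 10282 genes of at least 10 CPM that are no members, the log2 CPM of Fau was the most like the summed members over the 16 units (r = 0.993, or 0.971 within the 12 units at or under 3% rRNA). The pseudogenes Gm4332 (r = 0.990, or 0.949) and Gm10275 (r = 0.988, or 0.948) followed.

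Among genes that act with the ribosome 1 was called for treatment, where 1.65% of all genes were called lower. Of 38 translation factors, 1 was called lower, Eif5a, whose hypusine-bearing product helps ribosomes past stalls (-0.37, SE 0.10, adjusted p = 0.0457, edgeR, or 0.115 with the pairs summed). Eif4h, a helper of the eIF4A helicase, had -0.26 (adjusted p = 0.0910). The list's median was -0.21. Of 14 other TOP mRNAs, 0 were called and the median was -0.29, with Snhg8 at -0.61 (adjusted p = 0.0951) and Snhg6 at -0.44 (adjusted p = 0.106). Of 44 genes of ribosome assembly and RNA polymerase I, 0 were called and the median was -0.07, and Bop1, needed for 60S maturation, had -0.46 (adjusted p = 0.0640) and the kinase Riok1 0.25 (adjusted p = 0.0725). Of 27 genes of the TOR, S6 kinase and LARP1 axis, 0 were called and the median was -0.03, with Rheb, the activator of mTOR, at -0.34 (adjusted p = 0.0618) and Rps6ka2 at 0.57 (adjusted p = 0.0820).

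Lists of mitochondrial genes held 1 called gene, where 1.65% of all genes were called lower. Of 78 mitochondrial ribosomal protein genes, 1 was called lower, Mrps22 (-0.47, SE 0.11, adjusted p = 0.0308, edgeR, or 0.0998 with pairs summed), and the median was -0.30. Mrps9 had -0.29 (adjusted p = 0.0566). Of 47 respiratory chain subunits with short nuclear mRNAs, 0 were called and the median was -0.49, with Cox6a1 at -0.57 (adjusted p = 0.0571) and Ndufb6 at -0.55 (adjusted p = 0.0571). Of the 13 mt- protein-coding transcripts, 0 were called; mt-Co1 had -0.54 (adjusted p = 0.0626) and mt-Co3 -0.61 (adjusted p = 0.0704). Of 77 ribosomal protein pseudogenes tested, 1 was called lower, Rps13-ps1 (-0.61, adjusted p = 0.0433, or 0.118 with pairs summed), a share near that of all genes.

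For the slope on the mt- read share, 17.8% of all genes were called positive and 17% negative. Positive slopes were called for 20 of 38 translation factors and negative ones for 4, with Eef1b2, an exchange factor of elongation, at 0.30 and Eif3i at 0.27. Among other TOP mRNAs 12 of 14 were called positive and 0 negative, with Snhg8 at 0.50 and Ppia at 0.30. In the assembly list 8 of 44 were called positive and 8 negative, each near the share of all genes, with Polr1d at 0.31 and Nop10 at 0.34. In the TOR axis 4 of 27 were called positive and 7 negative, including Tsc1, an inhibitor of mTOR signalling, at -0.33 and Larp1 at -0.25. Positive slopes were called for 72 of 78 mitochondrial ribosomal proteins (Mrpl30 at 0.37, Mrpl18 at 0.31), for 47 of 47 short respiratory subunits (Cox7c and Atp5k at 0.48 and 0.49) and for 48 of 57 pseudogenes, with 1 negative. Without the 4 libraries high in rRNA, none of these genes was called by edgeR, as for all genes.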

How the data were processed

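The tools named per the submitters' processing notes are bcl2fastq and DRAGEN 3.9.3-8, with the build GRCm38. The sources used here name no annotation, strand setting or filter, so overlapping antisense genes cannot be separated. Per the labels' protocols, libraries were made from column-purified RNA with a SMARTer Ultra Low kit. Per the file headers, the deposited tables hold an estimated count, a TPM value and lengths for each gene, and estimated counts were rounded for tests. CPM is the count per 1000000 reads on genes.

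Symbols came from GENCODE M21 (GRCm38) for 55227 of 55487 identifiers. Counts were tested with edgeR 4.0.16 (R 4.3.3; robust quasi-likelihood, TMM factors, edgeR's expression filter, two-sided, Benjamini-Hochberg adjustment, threshold 0.05) over the whole table, 10 lemborexant against 9 vehicle libraries, and for the slope on the mt- read share over 16 units. SEs were derived from the F statistics. The tests were checked on counts simulated for 19 independent libraries. That check does not cover the nearly alike pairs, the 16 units or the 4 libraries that stand apart. The labels give no replicate number, so libraries were numbered within groups by accession. Alternatives were RLE factors, no filter, DESeq2 1.42.0, limma 3.58.1 (voom, log2 TPM), covariates, left-out libraries and summed pairs. The pooled correlation planned over 16 units was replaced by one within 12, after the 4 libraries were seen to stand apart. With at least 20185100 reads in each library, spread between libraries, not counting, limits the members tested. The members, the lists and the rules for naming genes were chosen with earlier results of these data known. Named genes are fixed members (stalk, 5S carriers, Rpsa, Rps6), paralogues with parents, those of smallest p, highest and lowest TPM, largest and smallest spread, 2 per list and fit, and the 3 most alike non-members. The result of 1 gene chosen by these rules is not reported here. Rpl27a, Rpl7a and the other printed starts were chosen for long, short or missing runs.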

Additional observations from a re-analysis of the deposited data

Results flagged for a closer look

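A library was looked for in each group that lay far outside the range of the others, relative to that range (Dixon's criterion), for 4 measures of each library and 30 members, 68 groups in all. Chance alone gives one in about 1 in 20 groups. In 29 of the 68 groups there was such a library, and in all 29 it was the highest value, in lemborexant 6. The 29 are not independent, since the members varied together.

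In lemborexant 6 the members took 3.59% of reads (next 2.29%), mt- genes 7.19% (next 5.28%) and nuclear rRNA 3.23% (next 2.15%), and the 40S to 60S ratio was 0.693 (next 0.649). Among 60S proteins, its CPM was 748 for Rplp0, 661 for Rplp1, 469 for Rplp2, 257 for Rpl11, 147 for Rpl22, 131 for Rpl36al, 122 for Rpl36a, 748 for Rpl7, 147 for Rpl39, 155 for Rpl27a, 283 for Rpl38, 263 for Rpl29, 66.1 for Rpl12, 1452 for Rpl41 and 890.2 for Rpl4. Among 40S proteins, it was 787 for Rpsa, 451 for Rps6, 65.4 for Rps27l, 385 for Rps27, 419 for Rps4x, 358 for Rps2, 274 for Rps21, 307 for Rps15, 720 for Rps29 and 1387 for Rps14. No vehicle library stood out in this way, and vehicle 3, 4 and 5 lay together at the top of that group.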

How the results depend on the processing

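The count of members called for treatment was 0 under every alternative run except limma's voom (1 lower, Rps7, adjusted p = 0.0478, named after its values were seen) and the fit without lemborexant 6 (22 lower); leaving out each library in turn gave 0 to 22. The median change was -0.57 to -0.27 on leaving out each library, 0.087 with the mt- read share as a covariate, 0.12 with the pairs also summed, and 0.00268 with pairs summed and the rRNA share as a covariate. The alternatives that combine summed pairs with a second choice were chosen after seeing the data. The member share ratio of 0.838 was 0.772 to 0.900 on leaving out each library and 0.944 without the 4 libraries high in rRNA. The mt- share difference was -1.70 to -1.14 points on leaving out each library and -1.33 points (exact permutation p = 0.0608) with pairs averaged. The count of members with a called slope was 80 to 81 on leaving out each unit and 0 without the 4 libraries.

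Among named genes, 38 changed sign with the mt- read share as a covariate: 0.091 for Rplp0, 0.013 for Rplp1, 0.032 for Rplp2, 0.12 for Rpsa, 0.093 for Rps6, 0.020 for Rpl5, 0.089 for Rpl11, 0.098 for Rack1, 0.058 for Fau, 0.067 for Rpl22l1, 0.11 for Rpl22, 0.21 for Rps27l, 0.21 for Rps27, 0.060 for Rpl36al, 0.00632 for Rpl36a, 0.097 for Rpl7l1, 0.10 for Rpl7, 0.037 for Rpl3, 0.15 for Rpl10, 0.063 for Rpl39, 0.095 for Rps4x, 0.012 for Rpl38, 0.00585 for Rpl29, 0.058 for Rps21, 0.093 for Rps15, 0.044 for Rpl12, 0.071 for Rps29, 0.093 for Rps14, 0.14 for Rpl41, 0.12 for Rpl4, 0.042 for Eef1b2, 0.015 for Eif3i, 0.00198 for Snhg6, 0.034 for Ppia, 0.020 for Nop10, -0.092 for Larp1, 0.000533 for Mrpl30 and 0.12 for Rpl9-ps6. On log2(TPM + 1) and on log2(TPM + 0.1) the change was 0.015 for Rpl5, 0.12 for Rpl7l1 and 0.034 for Rpl4. In the libraries numbered under 1000 it was 0.00371 for Rpl5, 0.015 for Rpl4, 0.049 for Eif4h, 0.042 for Eef1b2, 0.014 for Eif3i, 0.017 for Snhg6, 0.042 for Ppia, 0.020 for Rheb, -0.013 for Larp1 and 0.18 for Rpl30-ps10. Without the 4 libraries it was -0.000283 for Larp1, and with treatment as a covariate the slope of Bop1 was -0.00443. The cause was not tested.

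No paired analysis was possible because the labels give no replicate numbers. Lemborexant and vehicle library numbers over 1000 do not overlap, so no fit separates them. Depth limits Rpl3l, Rpl10l and Rpl39l, whose levels were not compared.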

Other observations

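The reads on ribosomal protein pseudogenes with -ps symbols were taken relative to the member reads of the same library. They were 9.71 to 10.5% in lemborexant (10.01 ± 0.268, SD, n = 10) and 9.12 to 9.73% in vehicle libraries (9.43 ± 0.193, SD, n = 9). The groups nearly separated, and the 4 libraries high in rRNA (9.25 to 9.85%) did not stand apart. The 10 lemborexant values include the nearly alike pairs, which may not be independent. With each pair summed, the lemborexant units ran from 9.76 to 10.4%, beside a highest vehicle value of 9.73%. The pseudogene with the largest difference was Rps6-ps4, chosen after its values were seen. Its reads were 1.24, 1.32 and 1.47% of member reads (lowest, median, highest) in lemborexant and 1.02, 1.12 and 1.23% in vehicle libraries, so the groups did not overlap. It was the only 1 of 77 tested pseudogenes for which that held, as it did for 0.0419% of all genes tested. In CPM it overlapped between the groups. Relative to Rps6 its reads were 93.3 to 105% in lemborexant and 78.4 to 97.0% in vehicle libraries. The gene 2600014E21Rik overlaps it in the annotation, and reads of the 3 genes may have been divided between them in the estimated counts. The part of library numbering, of tissue composition and of shared reads in this difference was not tested.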
